A study of Mus musculus with 72 samples.

Results

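The genes described here are 10 genes of the regulated secretory pathway, chosen by symbol and read through their Ensembl identifiers from a table of 55416 genes. They are the granins chromogranin A (Chga), chromogranin B (Chgb), secretogranin 2 (Scg2), secretogranin 3 (Scg3) and secretogranin 5 (Scg5), the prohormone convertases Pcsk1 and Pcsk2, the carboxypeptidase Cpe, the amidating enzyme Pam and the exocytosis protein Snap25. RNA of the pituitary, the epididymal white adipose tissue (eWAT) and the liver was sequenced from 24 male FVB.129P2 sighted mice, in 72 libraries. The offspring of FED dams, which ate ad libitum, and of CR20 dams, whose calories were reduced by 20% from embryonic day 15 until weaning on postnatal day 21, were compared. From 8 weeks of age the young males were kept on a diet with either 10% (CTRL) or 45% (HFD) fat, and the methods give 10 weeks on the diet for these mice. The 4 groups, FED-CTRL, FED-HFD, CR20-CTRL and CR20-HFD, held 6 mice each, and the 3 tissues of a mouse share its animal number in the labels. All mice were male and of 1 strain background, the pituitary was homogenised whole with no separation of lobes stated, and the litters of the mice are not given in the labels. In whole tissue, fewer cells of a type and less RNA per cell cannot be told apart.

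Endocrine cells make peptide hormones as longer precursors and store them in dense-core granules until a stimulus releases them. Granins are acidic proteins that condense in the Golgi and help to form the granule, convertases cut the precursors at basic residues, the carboxypeptidase removes the basic residues that are left, and the amidating enzyme finishes peptides that end in an amide. SNARE proteins such as Snap25 then bring the granule and the plasma membrane together. In the anterior pituitary Pcsk1 cuts proopiomelanocortin (Pomc) to adrenocorticotropin, and in the melanotrophs of the intermediate lobe Pcsk2 cuts it further to melanocyte-stimulating hormone.

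Total counts per library were 18299494 to 27601208 in the pituitary, 11589675 to 22364963 in the eWAT and 9842813 to 19928212 in the liver. In the pituitary, hormone genes (Gh, Prl, Pomc, Tshb, Fshb and Cga) summed to between 232500 and 409900 CPM (counts scaled to library size with TMM factors) in a library, against 1.29 to 22.8 CPM in the eWAT. The intermediate lobe genes Pomc, Pax7 and Oacyl were all above the filter on low counts in the pituitary. Genes of blood cells reached 13920 CPM and those of adipocytes 94.3 CPM in single FED-HFD pituitary libraries, against group medians of 1400 to 1944 CPM and 4.89 to 6.33 CPM.

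All 10 genes passed the filter in the pituitary, where 16657 genes were tested. Compared per length, as TPM (counts divided by the length of the canonical transcript and scaled to the same total in every library), Chga led with a median of 4042 TPM (3168 to 4772 over 24 libraries). Scg2 followed with 1828 TPM (1266 to 2668), and each of these was above the next gene in 24 of 24 libraries. Chgb at 844 TPM and Scg5 at 800.5 TPM could not be ordered, since Chgb was the higher of the pair in 12 of 24 libraries. Below them came Cpe at 550 TPM, Pam at 276 TPM and Scg3 at 229 TPM, and Pam was above Scg3 in 22 libraries. The convertases were lower, Pcsk2 at 86.4 TPM and Pcsk1 at 63.4 TPM, with Pcsk2 the higher in 22 libraries. Snap25 was lowest at 50.6 TPM and lay under Pcsk1 in 21 libraries. The order depends on the length used: with the union of all annotated exons, a choice added after the data were seen, Scg2 (2364 TPM) came before Chga (1573 TPM), Cpe (487 TPM) came before Scg5 (117.5 TPM), and Chgb came after Chga with 972 TPM. With the union length, Pam was above Scg3 in only 16 of 24 libraries and Pcsk2 above Pcsk1 in only 15 of 24.

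The spread between mice differed widely among these genes. Within the groups, the SD of the log2 CPM level was lowest for Chga, at 0.093. Chga, the precursor of vasostatin and pancreastatin, was also the most abundant of the 10 per length of canonical transcript, but not per union of exons. The SD was 0.114 for Pam, 0.135 for Cpe and 0.175 for Scg5, and the other 6 genes had SDs of 0.2 to 0.264. The highest library was 1.24 times the lowest for Chga, 2.09 times for Scg2 and 2.13 times for Snap25.

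The promoters of the 10 genes were also read, as a description. The cyclic AMP response element TGACGTCA, the motif bound by CREB, was searched in the window from 250 bases before to 50 bases after the start of the canonical transcript. As a palindrome it reads the same on both strands. It was present in 532 of 21769 windows of protein-coding genes (2.44%), and among the 10 genes in Scg2 and Pcsk1. The 30 bases around it are shown because these are the only matches among the 10 genes, in the mouse genome GRCm39, read 5′ to 3′ on the strand of the gene, with the element in capitals.
Scg2, chr1:79417793-79417822, minus strand: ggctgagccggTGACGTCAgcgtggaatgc
Pcsk1, chr13:75237887-75237916, plus strand: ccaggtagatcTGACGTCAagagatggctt
In Scg2 the element begins 26 bases after the annotated start, in the transcribed part of the gene, and in Pcsk1 it begins 47 bases before the start. The shorter core TGACG, on either strand and counted also inside the full element, was found in 6 of the 10 windows (Chga, Scg2, Scg3, Scg5, Pcsk1 and Pcsk2) and in 22.6% of all windows. A match of letters is a description and shows no binding. Of the genes with relations past the threshold between mice (described further down), Scg2, Scg3, Scg5 and Pcsk1 had the core, and Chgb, Cpe and Pam did not. Chga and Pcsk2, with no such relation, had it. The part of the motif in these relations was not tested.

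The study asked how restriction of the dam's food and the diet of the offspring act on the pituitary. None of the 10 genes passed an adjusted p-value of 0.05 by edgeR's quasi-likelihood test in any of the 4 pairwise comparisons, in the interaction of maternal group and diet or in the 2 averages. In the 4 pairs and the interaction the percentage of all tested genes that passed was 0, as in the average of CR20 against FED, and it was 0.024 in the average of HFD against CTRL. In CR20-CTRL against FED-CTRL, voom with quality weights called 284 of all genes and DESeq2 350, and neither called any of the 10. At an unadjusted p-value under 0.05, 3 of the 10 genes differed in CR20-CTRL against FED-CTRL, where 17.3% of all genes did. The numbers were 0 of 10 in CR20-HFD against FED-HFD (6.77% of all genes), 1 in FED-HFD against FED-CTRL (9.64%) and 1 in CR20-HFD against CR20-CTRL (7.28%). They were 1 in the interaction (11% of all genes), 2 in the average of CR20 against FED (13.2%) and 0 in the average of HFD against CTRL (6.23%). Read against these percentages, the counts show nothing particular to the 10 genes. The median log2 fold change of the 10 genes in CR20-CTRL against FED-CTRL was 0.14, with 7 positive and 3 negative, and that of all genes was 0.01. In the other 3 pairs the medians of the 10 genes were 0.00, 0.02 and -0.05, and those of all genes were 0.00, 0 and -0.02. The mice were treated as the replicates, although the restriction was applied to the dams. Since the litters are not given, likeness between littermates could not be taken into account. The SEs, intervals and p-values below, above all for CR20 against FED, may therefore be too small. Several of these comparisons share a group, so the values are given side by side and not as repeats of each other.

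**Figure D1:**
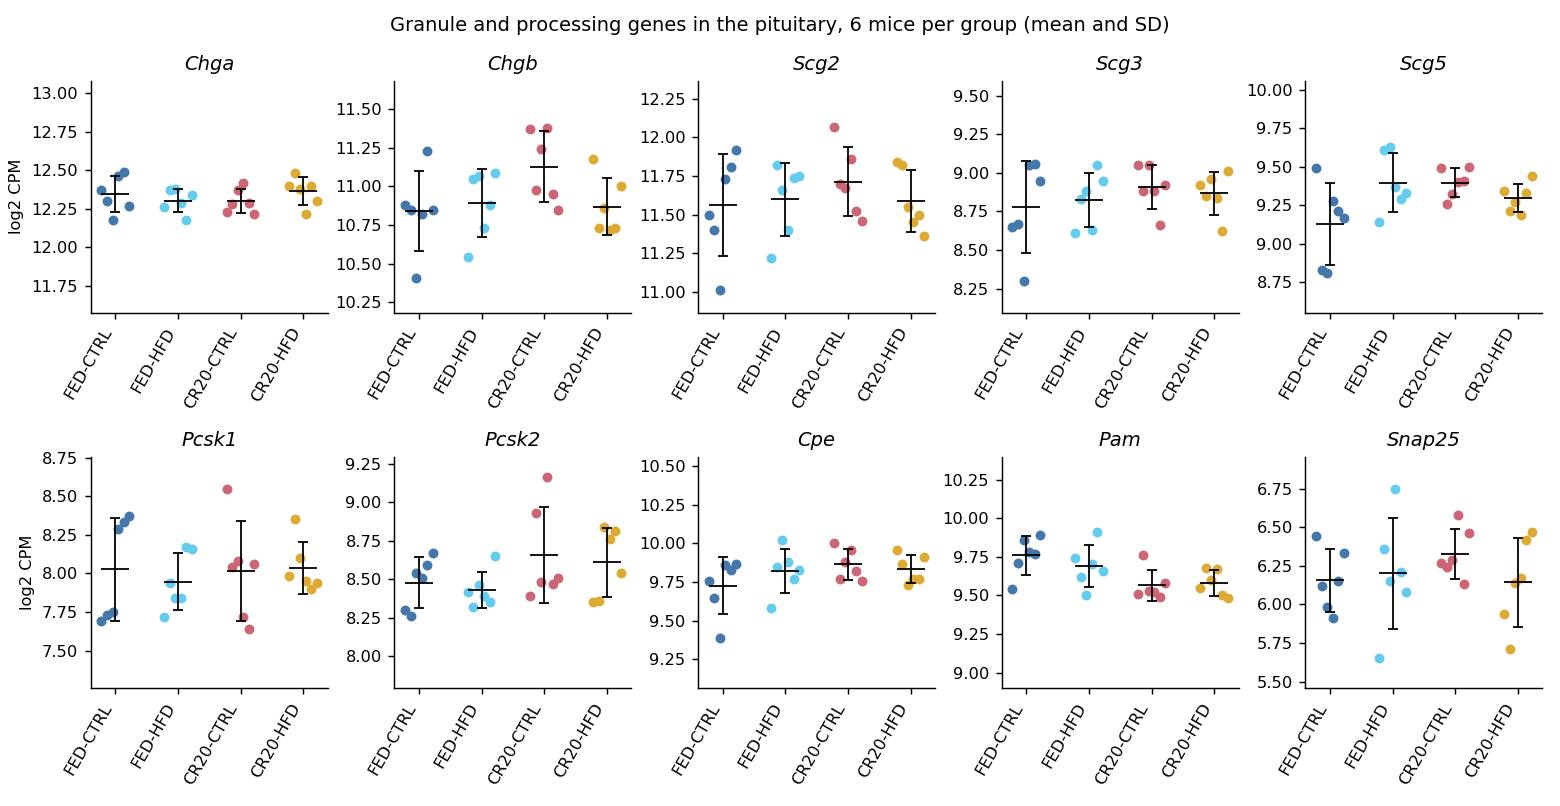
Level in log2 CPM (y axis, each panel spanning 1.5 units) of the 10 genes in the pituitary of the 4 groups (x axis). Points are mice (n = 6 per group), and the dash and bars give the mean and SD. The groups overlap for every gene, and Pam in CR20-CTRL mice lies mostly under Pam in FED-CTRL mice.

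Of the granins, Chgb and Scg5 gave the largest differences. Chgb, a major soluble protein of the granule core, ranged from 10.41 to 11.23 log2 CPM in FED-CTRL mice (median 10.85) and from 10.85 to 11.38 in CR20-CTRL mice (median 11.11). In FED-HFD mice it ranged from 10.54 to 11.09 (median 10.96) and in CR20-HFD mice from 10.72 to 11.18 (median 10.79). The groups overlapped, and 3 CR20-CTRL mice were above every FED-CTRL mouse. The log2 fold change of CR20-CTRL against FED-CTRL was 0.28 (SE 0.115, 95% interval 0.05 to 0.52, edgeR adjusted p = 0.208, exact permutation p = 0.0541). On the HFD diet the difference between the maternal groups was -0.03 (interval -0.26 to 0.21). Within the CR20 offspring, HFD against CTRL gave -0.26 (interval -0.50 to -0.03, adjusted p = 0.644, exact permutation p = 0.0606). The interaction of maternal group and diet was -0.31 (interval -0.65 to 0.02, adjusted p = 0.484).

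Scg5 encodes 7B2, the chaperone that accompanies the Pcsk2 precursor and is needed for its activation. It ranged from 8.81 to 9.49 log2 CPM in FED-CTRL mice (median 9.19), from 9.14 to 9.63 in FED-HFD mice (median 9.35), from 9.26 to 9.50 in CR20-CTRL mice (median 9.41) and from 9.19 to 9.44 in CR20-HFD mice (median 9.30). The FED-CTRL group was lower than the others and wider, with mice 15 and 16 at 8.83 and 8.81. All 6 CR20-CTRL mice lay above the FED-CTRL median, and 1 lay above every FED-CTRL mouse. The log2 fold change of CR20-CTRL against FED-CTRL was 0.25 (SE 0.0929, interval 0.06 to 0.44, adjusted p = 0.175, exact permutation p = 0.0368). FED-HFD against the same FED-CTRL mice gave 0.25 (interval 0.06 to 0.44, adjusted p = 0.356, exact permutation p = 0.0801). CR20-HFD against FED-HFD gave -0.10 (interval -0.29 to 0.09), and the interaction of maternal group and diet was -0.35 (SE 0.131, interval -0.62 to -0.08, adjusted p = 0.354).

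The other granins differed less. Scg2, the precursor of secretoneurin, had medians of 11.62, 11.70, 11.69 and 11.53 log2 CPM in FED-CTRL, FED-HFD, CR20-CTRL and CR20-HFD mice, and its lowest value, 11.01, and highest, 12.07, were in FED-CTRL and CR20-CTRL mice. Its log2 fold change in CR20-CTRL against FED-CTRL was 0.14 (interval -0.12 to 0.39, adjusted p = 0.609). Scg3, which binds Chga and cholesterol-rich granule membrane, ranged from 8.30 to 9.06 in FED-CTRL mice and from 8.66 to 9.05 in CR20-CTRL mice, with a log2 fold change of 0.11 (interval -0.10 to 0.32, adjusted p = 0.629). The 3 other pairs gave -0.13 to 0.02 for Scg2 and -0.04 to 0.04 for Scg3. Chga was the steadiest, with group medians of 12.29 to 12.39. Of the 4 pairs, its smallest p-value came from CR20-HFD against FED-HFD, with a log2 fold change of 0.06 (interval -0.06 to 0.19, adjusted p = 0.905), or 0.04 without CR20-HFD mouse 32, and the intervals of its 4 pairs lay between -0.17 and 0.19. The FED-CTRL library of mouse 16 was the lowest of its group for Chga, Chgb, Scg2, Scg3, Scg5 and Cpe, and had the highest blood gene sum of the group (5373 CPM, group median 1873). FED-HFD mouse 13 had a higher blood gene sum (13920 CPM) and was not the lowest of its group for any of these genes. FED-HFD mouse 10 was the lowest of its group for Chgb, Scg2, Scg3, Scg5, Pcsk1, Cpe and Snap25. Its library had the adipocyte gene Fabp4 at 6.07 log2 CPM, against 1.67 to 2.69 in the other FED-HFD pituitary libraries. The part of blood or of adipose tissue in these values was not tested. Without FED-CTRL mouse 16, CR20-CTRL against FED-CTRL gave 0.01 for Scg3, 0.03 for Scg2, 0.06 for Cpe, 0.18 for Scg5 and 0.19 for Chgb.

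Of the convertases, Pcsk2 gave positive differences between CR20 and FED offspring on both diets, which did not pass the adjusted test. It ranged from 8.26 to 8.67 log2 CPM in FED-CTRL mice (median 8.52), from 8.32 to 8.65 in FED-HFD mice (median 8.40), from 8.39 to 9.16 in CR20-CTRL mice (median 8.49) and from 8.35 to 8.84 in CR20-HFD mice (median 8.65). The mean of CR20-CTRL rests on 2 mice at 8.93 and 9.16, since the median was under that of FED-CTRL. The log2 fold change was 0.20 in CTRL mice (interval -0.03 to 0.43, adjusted p = 0.354, exact permutation p = 0.268), and without CR20-CTRL mouse 49 it was 0.07. In HFD mice it was 0.19 (interval -0.04 to 0.42), and the average over the diets was 0.20 (interval 0.04 to 0.36, adjusted p = 0.296), or 0.13 without CR20-CTRL mouse 49. Oacyl, a second gene of the intermediate lobe, had a log2 fold change of 0.52 in CR20-CTRL against FED-CTRL (adjusted p = 0.134), with Pomc at 0.16 (adjusted p = 0.421) and Pax7 at 0.15 (adjusted p = 0.582). The summed level of Pomc, Pax7 and Oacyl, nearly all of it Pomc, was 20900 to 28860 CPM in FED-CTRL and 22960 to 37230 CPM in CR20-CTRL libraries. The part of the share of this lobe in the Pcsk2 values was not tested. An antisense RNA that overlaps Pcsk2, Pcsk2os1, had at most 292 counts in a pituitary library, against 5961 to 13647 for Pcsk2.

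Pcsk1, the other convertase, passed the test in no pair, and its values were split inside 1 group. Its medians were 8.02, 7.89, 8.05 and 7.96 log2 CPM in FED-CTRL, FED-HFD, CR20-CTRL and CR20-HFD mice. In FED-CTRL mice, mice 14, 15 and 16 had 7.69, 7.73 and 7.75, and mice 24, 41 and 42 had 8.29, 8.33 and 8.37, with no value between. The log2 fold change with the smallest p-value was -0.10, in FED-HFD against FED-CTRL (interval -0.37 to 0.17, adjusted p = 0.853, exact permutation p = 0.608), and without FED-CTRL mouse 42 it was -0.03. The 3 other pairs gave -0.01 to 0.09.

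Of the finishing enzymes, Pam gave negative differences between CR20 and FED offspring, which did not pass the adjusted test. Its unadjusted p-value was the smallest of the 10 genes in CTRL mice and in the average over the diets. It ranged from 9.54 to 9.89 log2 CPM in FED-CTRL mice (median 9.77) and from 9.49 to 9.76 in CR20-CTRL mice (median 9.52). On HFD it ranged from 9.50 to 9.91 in FED mice (median 9.68) and from 9.48 to 9.68 in CR20 mice (median 9.57). All 6 CR20-CTRL mice lay under the FED-CTRL median and 4 lay under every FED-CTRL mouse, while mouse 47 stood apart from the other CR20-CTRL mice at 9.76. All 6 CR20-HFD mice lay under the FED-HFD median. The log2 fold change was -0.19 in CTRL mice (SE 0.0687, interval -0.33 to -0.05, adjusted p = 0.158, exact permutation p = 0.0238) and -0.12 in HFD mice (interval -0.26 to 0.03, adjusted p = 0.783). The average over the diets was -0.15 (SE 0.0486, interval -0.25 to -0.06, adjusted p = 0.238), the 238th smallest p-value of all tested genes in that contrast. HFD against CTRL gave -0.07 in FED and 0.01 in CR20 offspring. Cpe, which trims basic residues and also helps to sort cargo into granules, had a log2 fold change of 0.13 in CR20-CTRL against FED-CTRL (interval -0.02 to 0.29, adjusted p = 0.369, exact permutation p = 0.119), from group ranges of 9.76 to 10.00 and 9.39 to 9.87, and 3 CR20-CTRL mice lay above every FED-CTRL mouse. The 3 other pairs gave -0.03 to 0.09.

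Snap25, a plasma membrane SNARE also found in the endings of neurons, ranged from 6.13 to 6.58 log2 CPM in CR20-CTRL mice (median 6.28) and from 5.71 to 6.47 in CR20-HFD mice (median 6.15). Its log2 fold change between them was -0.17 (interval -0.44 to 0.10, adjusted p = 0.794, exact permutation p = 0.206), and without CR20-HFD mouse 32 it was -0.08. The 3 other pairs gave -0.07 to 0.17. The summed level of posterior lobe and neural genes (Avp, Oxt, Rax, Nkx2-1, Col25a1, Gfap, Rbfox3 and Tubb3), all 8 of which passed the filter, was 86.0 to 115 CPM in CR20-CTRL and 85.3 to 110.6 CPM in CR20-HFD libraries. It was 112 to 121 CPM in FED-CTRL and 89.3 to 113 CPM in FED-HFD libraries, so that FED-CTRL, the reference of 2 of the pairs above, had the highest median of the 4 groups. The part of posterior lobe and neural cells in the differences of Snap25 and of the other genes was not tested.

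**Figure D2:**
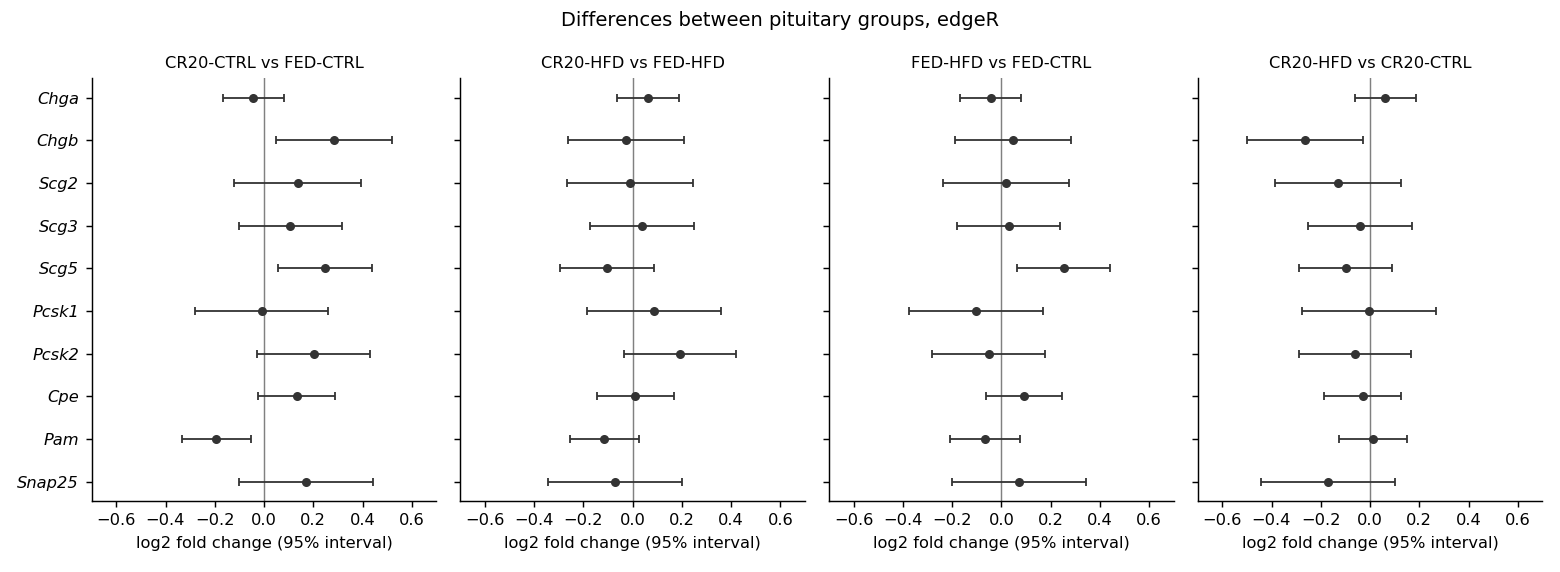
Log2 fold change (x axis) of the 10 genes (y axis) in the 4 pairwise comparisons of pituitary groups by edgeR. Points are estimates from 6 mice per group and bars are 95% intervals not adjusted for the number of genes. The intervals leave out 0 for Chgb, Scg5 and Pam in CR20-CTRL against FED-CTRL, Scg5 in FED-HFD against FED-CTRL and Chgb in CR20-HFD against CR20-CTRL.

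The intervals give the size of change that these data leave room for. Over the 10 genes and 4 pairs, the farthest limits of an interval were 0.52 above 0 (Chgb, CR20-CTRL against FED-CTRL) and 0.50 under 0 (Chgb, CR20-HFD against CR20-CTRL).

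Genes that work beside these 10 were read from 4 lists with 55 genes in all (granin-like and helper proteins, other processing enzymes, granule formation and membrane, and exocytosis machinery). None of those that passed the filter passed the adjusted test in any comparison. In CR20-CTRL against FED-CTRL, 10 of them had positive and 6 negative differences at an unadjusted p-value under 0.05, where 17.3% of all genes had differences of either sign. Among the granin-like and helper proteins this was Resp18, at 0.21 (adjusted p = 0.139). Among the other processing enzymes these were Cpd, which trims like Cpe in the Golgi, at 0.23, Furin, the general convertase of the Golgi, at 0.17 and Pcsk7 at 0.21 (adjusted p = 0.228 to 0.269). Among genes of granule formation and membrane, Cyb561, which carries electrons into the granule for amidation by Pam, was at -0.24, Ptprn at -0.25 and Ccdc186, needed for granule maturation, at 0.32 (adjusted p = 0.100 to 0.158). In the exocytosis machinery, Rph3al was at -0.27 (adjusted p = 0.0988), Rab27b, a GTPase of granule docking, at 0.53 (adjusted p = 0.160) and the synaptotagmin Syt4 at 0.48 (adjusted p = 0.175), with 5 of 31 genes positive and 3 negative.

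In FED-HFD against FED-CTRL the exocytosis list held 9 of 31 genes with negative and 0 with positive differences at an unadjusted p-value under 0.05, beside 9.64% of all genes in both directions. The posterior lobe and neural sum, most of it Tubb3, was lower in FED-HFD than in FED-CTRL libraries (median 99.5 against 115 CPM). The immune sum (Ptprc, Cd68 and Lyz2) was higher (22.4 to 38.6 against 17.8 to 23.3 CPM). The part of either in these values was not tested. The smallest p-values were those of the calcium sensors Syt7, at -0.26 (adjusted p = 0.170), and Syt5, at -0.37 (adjusted p = 0.298), and of the SNARE Stx1a, the partner of Snap25, at -0.34 (adjusted p = 0.303). The median of the list was -0.07, and that of all genes was 0. In the same comparison Vgf, a granin-like precursor, was at -0.39 (adjusted p = 0.391) and Pcsk1n, which encodes the Pcsk1 inhibitor proSAAS, at -0.26 (adjusted p = 0.409). Ptprn2 and Ptprn, proteins of the granule membrane, were at -0.27 and -0.19 (adjusted p = 0.395 and 0.495), and Pcsk6 was at -0.18 (adjusted p = 0.396). The median difference of the 10 genes here was 0.02, with Scg5 as the single gene at an unadjusted p-value under 0.05.

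On the HFD diet, CR20 against FED gave Vgf at 0.47 (adjusted p = 0.530), Pcsk6 at 0.22 (adjusted p = 0.530), Pick1 at -0.34 (adjusted p = 0.581) and, of the exocytosis list, Sytl4 at 0.22, Nsf at 0.20 and Rph3al at 0.16 (adjusted p = 0.604 to 0.731), and 6.77% of all genes were under the same unadjusted threshold. In CR20-HFD against CR20-CTRL (7.28% of all genes), Pcsk1n was at -0.23, Pcsk7 at -0.21, Cyb561 at 0.19, Eipr1 at 0.19, Rph3al at 0.25 and Napg at -0.23 (adjusted p = 0.548 to 0.669). In the interaction (11% of all genes), Rph3al, an effector of Rab GTPases on granules, had the smallest p-value of the 4 lists, at 0.44 (SE 0.110, adjusted p = 0.314), and its differences between maternal groups were -0.27 on CTRL and 0.16 on HFD. Syt7 was at 0.28, Napg at -0.39, Cyb561 at 0.30, Pick1 at -0.40, Ptprn2 at 0.33, Pcsk6 at 0.31 and Vgf at 0.47 in the interaction (adjusted p = 0.335 to 0.436).

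Averaged over the diets, CR20 against FED gave Sytl4 at 0.20 (adjusted p = 0.226), Rab27b at 0.35, Syt1 at 0.14, Cpd at 0.19, Furin at 0.14, Ccdc186 at 0.22, Vgf at 0.24 and Resp18 at 0.11 (adjusted p = 0.263 to 0.346), beside 13.2% of all genes. Averaged over the maternal groups, HFD against CTRL gave Pcsk1n at -0.24 (adjusted p = 0.388), Exph5 at -0.39, Syt7 at -0.12, Syt5 at -0.18 and Ctsl at 0.11 (adjusted p = 0.576 to 0.788), beside 6.23% of all genes.

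Across mice, several of the 10 genes varied together once the group means were taken out. Of 45 pairs, 9 had a positive and 1 a negative relation at an adjusted p-value under 0.05 (permutation test with 100000 resamples within groups, adjusted over 55 relations that include each gene with Pomc). The points share the library and its scaling, and the median r of each of the 10 genes with all tested genes was -0.02 to 0.01. That median does not give the spread of r, and the share of pairs past the threshold among all tested genes was not computed. The counts of 9 and 1 are therefore not shown to be particular to these genes. Cpe, Scg2 and Scg3 each had 4 positive partners. For Cpe, r was 0.77 with Chgb (rho 0.65, adjusted permutation p = 0.0066), 0.77 with Scg2 (rho 0.68, adjusted permutation p = 0.0066), 0.68 with Scg5 (rho 0.65, adjusted permutation p = 0.0171) and 0.65 with Scg3 (rho 0.53, adjusted permutation p = 0.0249). Chgb and Scg2 had r = 0.73 (rho 0.68, adjusted permutation p = 0.0066), Chgb and Scg3 0.67 (rho 0.56, adjusted permutation p = 0.00896) and Scg2 and Scg3 0.72 (rho 0.64, adjusted permutation p = 0.00797). Pcsk1 went with Scg3 at r = 0.73 (rho 0.82) and with Scg2 at r = 0.70 (rho 0.68), both with an adjusted permutation p of 0.00797. By rank, the adjusted permutation p was 0.0551 for Chgb with Scg3 and 0.0834 for Scg3 with Cpe, and it was 0.0121 to 0.0256 for the 7 other positive pairs. Scg5 and Pam had r = -0.61 (rho -0.62, adjusted permutation p = 0.0281 for r and 0.0259 for rho), so mice with more Scg5 had less Pam.

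Without the 2 libraries farthest from the median of the first gene, r of the 9 positive pairs was 0.47 to 0.72, with the lowest value for Scg3 and Cpe, and that of Scg5 and Pam was -0.48. Within mice numbered under 20 (n = 11) the 9 pairs had r of 0.33 to 0.86, lowest for Scg2 and Pcsk1, and within mice numbered 40 and above (n = 8) 0.50 to 0.85. Scg5 and Pam had r = -0.79 and -0.30 in these ranges. The 5 mice numbered 20 to 39 were too few for a value.

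Chga had no relation past the threshold, with its highest r at 0.54 for Chgb and for Cpe (adjusted permutation p = 0.0618 for both). Pcsk2 was near 0 with every granin, from -0.12 with Scg5, whose product is its chaperone, to 0.12 with Chga. Within the ranges of animal numbers described below, Pcsk2 with Scg3 had r = -0.33 (under 20) and -0.51 (40 and above), against 0.02 over all mice. With Pomc, Pcsk2 had r = 0.58 (rho 0.57, adjusted permutation p = 0.0668) and Pcsk1 r = -0.56 (rho -0.50, adjusted permutation p = 0.0618), neither of which passed. Without the 2 farthest libraries these were 0.39 and -0.43.

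**Figure D3:**
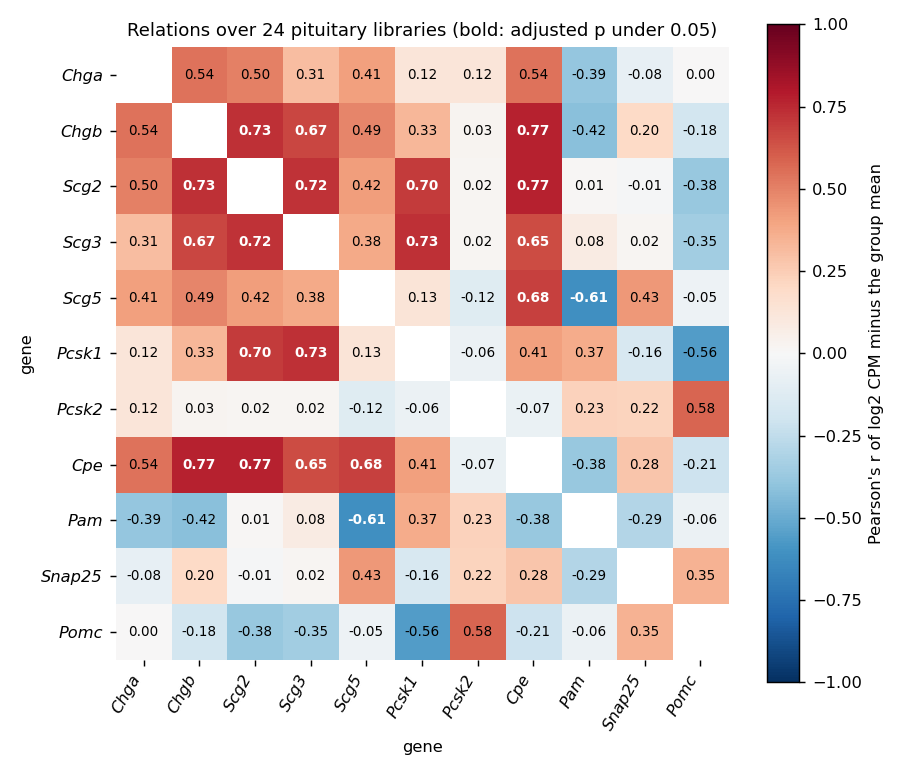
Pearson's r of log2 CPM minus the group mean for each pair of the 10 genes and Pomc (both axes), over 24 pituitary libraries, with colour from -1 (blue) to 1 (red) and bold type for an adjusted permutation p under 0.05. Chgb, Scg2, Scg3 and Cpe form a block with r of 0.65 to 0.77, and Pcsk2, Pam and Snap25 stand outside it.

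The gene with the most similar pattern over the same 24 libraries, by r of group-centred log2 CPM among all tested genes, was Pdia3 for Scg3 (r = 0.93), Colq for Pcsk2 (0.89), Rad21 for Scg2 (0.88), Mtdh for Chgb (0.87) and Ncl for Cpe (0.85). It was Nsf for Pcsk1 (0.83), Rc3h2 for Snap25 (0.82), Npc2 for Scg5 (0.81), Fam20b for Pam (0.81) and Susd5 for Chga (0.74). Each is the highest r among 16657 tested genes and is given with no test.

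The animal numbers in the labels fall into ranges, under 20 (11 mice), 20 to 39 (5 mice) and 40 and above (8 mice), which hold mice of all 4 groups in unequal numbers (3, 4, 2 and 2 mice of FED-CTRL, FED-HFD, CR20-CTRL and CR20-HFD under 20, against 2, 1, 3 and 2 at 40 and above). What the ranges stand for is not stated in the labels, and the comparison between them was added after the values were seen. With the range as a term beside the groups, 9.19% of all tested genes differed between mice numbered 40 and above and mice numbered under 20 at an adjusted p-value under 0.05, and 4 of the 10 genes did so.

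All 4 were higher in the mice with higher numbers. Pcsk1 was at 7.64 to 8.06 log2 CPM in mice under 20 (mean 7.82) and at 7.72 to 8.37 in mice at 40 and above (mean 8.09), a log2 difference of 0.28 (SE 0.0794, edgeR adjusted p = 0.0256). Pcsk2 was at 8.26 to 8.81 (mean 8.46) and at 8.48 to 9.16 (mean 8.76), a difference of 0.27 (SE 0.0705, adjusted p = 0.0149). Scg2 rose from a mean of 11.44 to 11.71 (difference 0.27, adjusted p = 0.0279) and Scg3 from 8.71 to 8.95 (difference 0.24, adjusted p = 0.0283). The ranges overlapped for each gene. The 5 mice numbered 20 to 39 had the highest mean Pcsk1, 8.27, and the lowest mean Pcsk2, 8.39, so the convertases did not follow the numbers in the same way. Chgb differed by 0.19 (adjusted p = 0.195), Pam by 0.10 (adjusted p = 0.231), and Chga, Scg5, Cpe and Snap25 by -0.07 to 0.06. With the range as a term, CR20-CTRL against FED-CTRL gave 0.25 for Chgb, 0.26 for Scg5, 0.14 for Pcsk2 and -0.21 for Pam (edgeR adjusted p = 0.0991 to 0.376), against 0.28, 0.25, 0.20 and -0.19 without it. The 2 sets of FED-CTRL mice that Pcsk1 separated are the 3 numbered under 20 and the 3 numbered above.

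**Figure D4:**
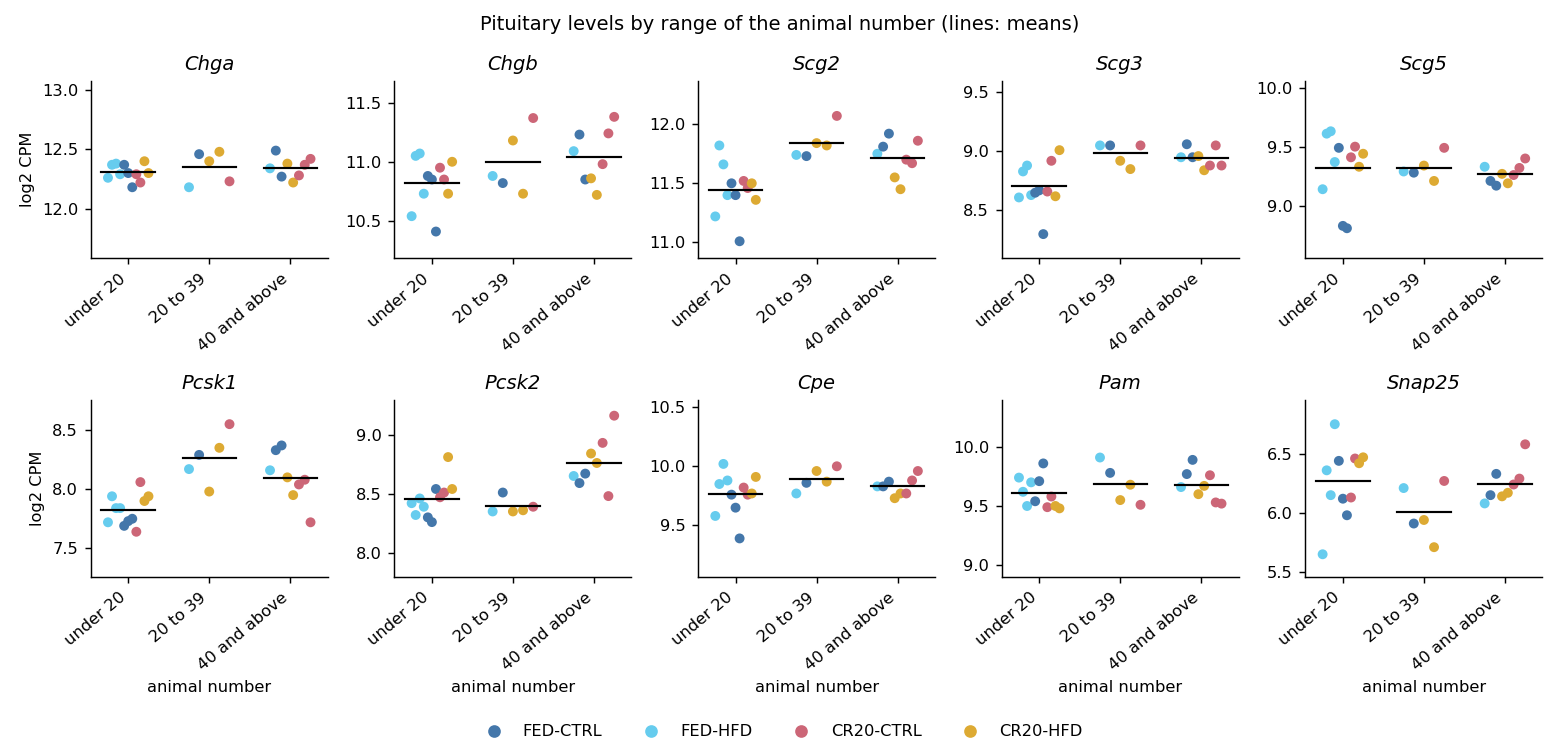
Level in log2 CPM (y axis, each panel spanning 1.5 units) of the 10 genes by range of the animal number (x axis; 11, 5 and 8 mice), with points coloured by group and lines at the means. Pcsk1, Scg2 and Scg3 are lowest in mice numbered under 20, and Pcsk2 is highest in mice numbered 40 and above.

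Compared with the other tissues of the same mice, all 10 genes were higher in the pituitary, as 86.8% of 19210 genes differed between pituitary and eWAT and 89.6% between pituitary and liver by the same edgeR test, in either direction. Against the eWAT, the log2 difference of 7 of the 10 (all but Pam, Cpe and Scg3) lay at percentiles of 98.2 to 99.97 among all genes. On a CPM scale set over all 72 libraries, the median of Chga was 4596 CPM in the pituitary (4172 to 5203), 0.664 CPM in the eWAT and 0.106 CPM in the liver. Pcsk1 had a median of 224 CPM in the pituitary and of 0 in both other tissues, where 19 of 24 eWAT libraries and 24 of 24 liver libraries had fewer than 3 counts. In the liver, Scg3, Scg5, Pcsk2 and Snap25 had at most 1 count in any library. Growth hormone (Gh) in the eWAT and liver had medians of 0.00104% and 0.0028% of its pituitary median. These shares differed between hormone genes, with 0.00068% and 0.00155% for Prl and 0.00495% and 0.00416% for Pomc. Chga in the liver (0.0023%), Scg2 in the eWAT (0.00187%) and Scg2 in the liver (0.00444%) had medians inside this span. Whether such low counts are carry-over between libraries was not tested. The eWAT libraries with the most Scg2 are given further down.

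Pam, Cpe and Scg3 were the exceptions against the eWAT. Against the liver, the log2 differences of Scg3 and Cpe lay at percentiles of 99.95 and 98.55 among all genes, and that of Pam at 88.38. Pam had medians of 717 CPM in the pituitary, 170 CPM in the eWAT (106 to 224) and 20.5 CPM in the liver (14.1 to 30.9), with a log2 difference of 2.13 (SE 0.065) and 5.10 (SE 0.0747) to the pituitary. Cpe had 820 CPM in the pituitary, 19.2 CPM in the eWAT (10.4 to 42.2) and 0.56 CPM in the liver, with log2 differences of 5.30 and 10.32. Scg3 was at 421 CPM, 3.24 CPM and 0, and was thus at 0.768% of its pituitary level in the eWAT, with 26 to 170 counts in every library.

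**Figure D5:**
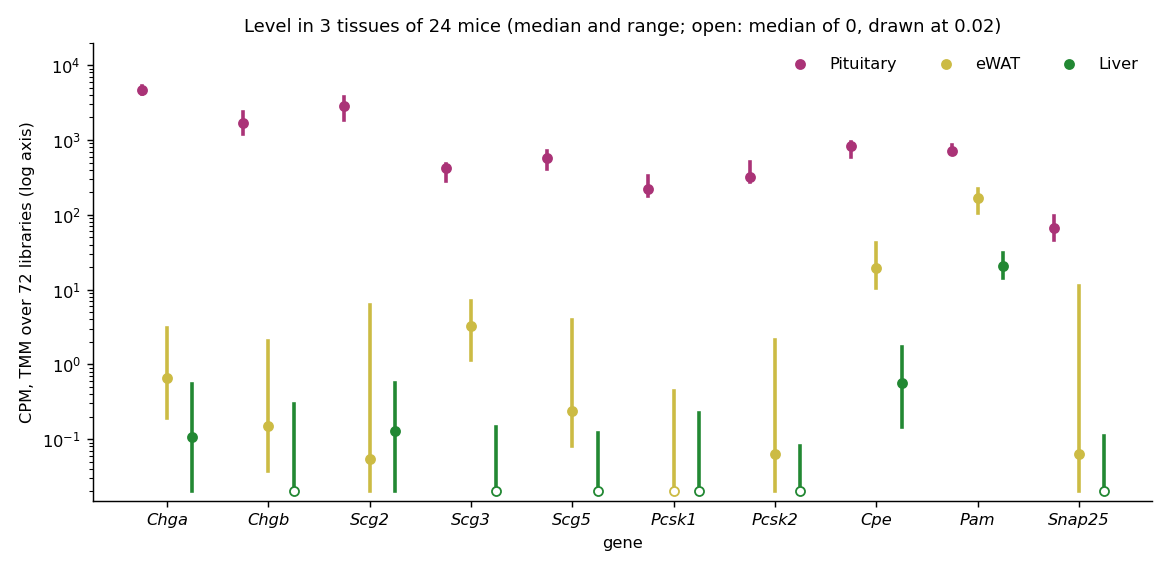
Level in CPM (y axis, log scale, TMM over 72 libraries) of the 10 genes (x axis) in the pituitary, eWAT and liver of 24 mice. Points are medians and lines the range, with values under 0.02 drawn at 0.02 and open points for a median of 0. Pam is the gene with the smallest differences between the tissues.

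In the eWAT 5 of the 10 genes passed the filter (Chga, Scg3, Scg5, Cpe and Pam) among 15964 tested, and Pam was the only one with an adjusted p-value under 0.05. The percentage of all tested genes that passed was 0 in CR20-CTRL against FED-CTRL, 14.9 in CR20-HFD against FED-HFD, 10.5 in FED-HFD against FED-CTRL, 0 in CR20-HFD against CR20-CTRL and 2.29 in the interaction. Pam ranged from 7.78 to 8.07 log2 CPM in FED-HFD mice (median 7.96) and from 7.10 to 7.81 in CR20-HFD mice (median 7.33). The groups overlapped by 1 mouse, and the other 5 CR20-HFD mice lay under every FED-HFD mouse. The log2 fold change was -0.55 (SE 0.143, interval -0.85 to -0.26, adjusted p = 0.0118, exact permutation p = 0.00433). In CTRL mice it was -0.21 (interval -0.51 to 0.08, adjusted p = 0.873), from ranges of 7.58 to 7.98 in FED and 7.17 to 8.11 in CR20 mice. The interaction was -0.34 (interval -0.76 to 0.08, adjusted p = 0.369). Beside it, immune genes (Ptprc, Cd68 and Lyz2) summed to 1399 to 7956 CPM in FED-HFD and 673 to 1316 CPM in CR20-HFD libraries, and adipocyte genes to 8152 to 21820 and 20440 to 25040 CPM. Their part in the Pam difference was not tested.

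Cpe in the eWAT had a log2 fold change of 0.72 in CR20-CTRL against FED-CTRL (interval 0.15 to 1.30, adjusted p = 0.470), from ranges of 4.11 to 5.84 and 3.69 to 4.80 log2 CPM. The 2 highest CR20-CTRL values were 5.84 in mouse 5, whose eWAT library had Alb at 405 CPM and the lowest adipocyte sum of its group (8049 CPM), and 5.34 in mouse 4, whose library had the neural gene counts given next. Without mouse 5 the difference was 0.48 (interval -0.06 to 1.03), and without both mice, a choice made after seeing the data, it was 0.33 (interval -0.24 to 0.90, edgeR adjusted p = 1.00). The low counts of several granule genes in the eWAT came mostly from single libraries. That of FED-HFD mouse 13 had 226 counts of Snap25, 126 of Scg2, 42 of Pcsk2 and 41 of Chgb, and that of CR20-CTRL mouse 4 had 50 counts each of Snap25 and Scg2 and 27 of Chgb, whereas no other eWAT library had more than 18 counts of Snap25 or 10 of Scg2 and of Chgb. In the same 2 libraries Gfap was at 7.18 and 19.3 CPM and Gh was at 3.16 and 10.8 CPM, inside the range of 0.673 to 19.3 CPM of the other eWAT libraries. Without FED-HFD mouse 13 the Pam difference in HFD mice was -0.56.

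In the liver only Pam passed the filter among 13787 genes, and it passed the adjusted test in none of the 5 comparisons, where 0, 0, 0.109, 0.515 and 0% of all genes did (CR20-CTRL against FED-CTRL, CR20-HFD against FED-HFD, FED-HFD against FED-CTRL, CR20-HFD against CR20-CTRL and the interaction). Its medians were 4.15, 3.78, 3.91 and 3.88 log2 CPM in FED-CTRL, FED-HFD, CR20-CTRL and CR20-HFD mice. The largest difference was -0.38 in FED-HFD against FED-CTRL (interval -0.67 to -0.10, adjusted p = 0.519), and CR20-CTRL against FED-CTRL gave -0.30 (interval -0.58 to -0.01, adjusted p = 0.999). In HFD mice the maternal groups differed by 0.09 (interval -0.20 to 0.37), opposite in sign to the eWAT value of the same mice.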

How the data were processed

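After trimming, the authors mapped the reads to GRCm39 with STAR and summed them per Ensembl gene with featureCounts, and the deposited values are raw counts. The strand setting and the versions are not given in the sources used here. Symbols and positions came from GENCODE M39, which named 54749 of 55416 genes, and the 667 without a name were kept in the tests. A separate model for each tissue, with its 24 libraries, was fitted in edgeR 4.0.16 under R 4.3.3 (filterByExpr, TMM, quasi-likelihood test with a mean per group of 6 mice, two-sided, Benjamini-Hochberg adjustment over all tested genes). SEs were taken from F. Log2 CPM used a prior count of 2. For single genes, an exact permutation test over the 924 divisions of 12 mice was used (SciPy, two-sided, not adjusted). On simulated counts for the 16657 pituitary genes, edgeR found 157 of 200 genes with a log2 change of 1 in CR20-HFD against FED-HFD, with 8 wrong calls. The simulation held no smaller changes and no variation shared between genes. It therefore does not show how often differences as small as those of the 10 genes would be found. Each of the 10 genes was described in full in its pair with the smallest p-value, and up to 3 genes per other list were named at an unadjusted p-value under 0.05. The 10 genes and all lists were chosen with earlier results of these data known. Alternatives were limma 3.58.1 voom, DESeq2 1.42.0, other scalings and filters, the groups compared alone, robust empirical Bayes, a term for the animal-number range and leaving out each mouse. Counting error is small for the pituitary counts and large for eWAT and liver counts under 10.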

Additional observations from a re-analysis of the deposited data

Results flagged for a closer look

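Of 64 sets of 6 mice tested with Dixon's ratio over the 10 genes in 3 tissues (only genes that passed the filter in that tissue), 2 held a library that stood apart, and chance flags about 1 set in 20. In the pituitary, Pam was at 9.76 log2 CPM in CR20-CTRL mouse 47, above the other 5 mice of the group at 9.49 to 9.58. In the eWAT, Scg5 was at 2.30 log2 CPM in FED-HFD mouse 13, above the others at -1.97 to -1.22. This is the eWAT library that also had the most counts of Snap25, Scg2, Pcsk2 and Chgb.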

How the results depend on the processing

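All 1138 values recomputed under the alternatives kept their direction and their side of the threshold. These included the counts of called genes among the 10, a part of their log2 fold changes in the pituitary, and Pam in the eWAT. In the pituitary, the fold changes recomputed were those of each gene's pair with the smallest p-value and those with an unadjusted p-value under 0.05. The direction of the other pituitary fold changes was not checked. The tool changed the number of all genes called in CR20-CTRL against FED-CTRL, from 0 by edgeR to 284 by voom with quality weights, 350 by DESeq2 and 50 by edgeR without a filter, and none of the 10 genes was among them. In FED-HFD against FED-CTRL DESeq2 called 19 genes and edgeR without a filter 55, against 0. The smallest adjusted p over the alternatives was 0.0667 for Scg5 and 0.0751 for Pam, both in CR20-CTRL against FED-CTRL. The animal number pairs the 3 tissues of a mouse. With it as a replicate block, 10 of 10 genes were called between the pituitary and the eWAT and 10 of 10 between the pituitary and the liver, as without it. Between groups, the paper describes FED and CR20 dams paired for feeding, and pups of each dam assigned to either diet. The labels give neither the litter nor the dam pair, so no paired analysis between groups was possible. With each mouse left out, the log2 fold change in CR20-CTRL against FED-CTRL was 0.19 to 0.36 for Chgb, 0.18 to 0.33 for Scg5 and -0.24 to -0.17 for Pam. That of Pam in the eWAT, CR20-HFD against FED-HFD, was -0.65 to -0.50.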
